A study of Mus musculus with 5 samples.

Results

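Shore tiles were the stretches of 1 kb that flank CpG-dense DNA and are themselves less dense. A tile was dense where 30 or more CpG positions were listed in any library, each strand of a CpG counting as its own position. A shore tile had at most 29 listed positions, at least 3 positions read 10 or more times in all 5 libraries (shared positions), and a dense tile among the 2 tiles on either side. By this rule 2377 of the 24319 autosomal tiles with 3 or more shared positions were shore tiles. Of these, 2033 lay 1 tile from a dense tile and 344 lay 2 tiles away. They were set beside 11229 dense tiles and 10713 distal CpG-poor tiles, which had no dense tile within 2 tiles. Listed positions, not a genome sequence, stood for CpG density, so a CpG-dense tile with few reads could count as sparse. Just inside and outside the limit, the 97 shore tiles with 29 listed positions had a mean level of 5.63% and the 241 dense tiles with 30 had 11.0%, with medians of 0.170% and 0.308%.

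The cells were LSK cells of mouse bone marrow, the fraction that lacks lineage markers and carries Sca1 and Kit, from mice of mixed 129Ola x C57Bl/6J background. Of the 5 libraries, 3 came from Idh1-R132H knock-in mice and 2 from wild-type mice. Age, sex, the number of mice behind a library and the way the allele was switched on are not given in the sources used here. Every p-value therefore speaks only of how these 5 libraries vary, and that variation may be technical. The assay was extended reduced representation bisulfite sequencing, in which DNA is cut by MspI at CCGG and unmethylated cytosines are converted before reading. No expression marker was measured, so the cell type could not be checked in these data.

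In mammals, CpG-dense islands at gene starts are mostly free of methylation, and most CpGs elsewhere are methylated. The flanks of islands, called shores, carry the change from one state to the other and often differ between tissues. TET enzymes oxidise methylated cytosine and DNMT3A adds methyl groups, and both act at island borders. Mutant IDH1 makes a metabolite, 2-hydroxyglutarate, that can inhibit TET enzymes, so the study asked whether methylation differs between the genotypes.

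A shore tile held a median of 5 shared positions at 1 tile and 4 at 2 tiles, of 18 and 14 listed. Median reads per tile over the libraries ran from 100 to 705 at 1 tile and from 77.5 to 498.5 at 2 tiles, lowest in wild-type replicate 1 and highest in knock-in replicate 3. Knock-in replicate 2 and wild-type replicate 1 were the shallowest libraries and also stood apart on chromosome X, where their dense tiles had a level of 24.1% each against 2.94 to 3.82% in the others. Reads were amplified by PCR and carried no molecular tags, so limits set by depth cover counting error only.

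The sequences below are promoters that show the range seen where a gene start fell in or beside a shore tile. Each is the 250 bases before the start, 5′ to 3′ on the strand of the gene, from RefSeq (GRCm38.p6). The mm9 place was found by matching the spacing of CpGs in the sequence to the positions listed for the libraries. Capitals mark the CpGs that were shared positions on at least 1 strand. Csf2ra, Gnas and Pparg are shown because they were the 3 promoters at 10% or more among 74 that lay wholly inside a shore tile and had 3 or more shared positions. Tra2a and Atl3 are shown as densely measured examples of the 68 under 5%, and Snx18 because its neighbouring shore tile had the widest separation between the groups. These examples were chosen after their values were seen.
Csf2ra (chr19:61304322-61304571, minus strand): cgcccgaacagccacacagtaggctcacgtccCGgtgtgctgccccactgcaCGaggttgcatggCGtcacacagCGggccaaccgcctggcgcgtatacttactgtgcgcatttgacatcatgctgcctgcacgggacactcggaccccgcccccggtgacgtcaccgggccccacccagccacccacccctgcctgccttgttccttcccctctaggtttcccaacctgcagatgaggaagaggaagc
Gnas (chr2:174109571-174109820, plus strand): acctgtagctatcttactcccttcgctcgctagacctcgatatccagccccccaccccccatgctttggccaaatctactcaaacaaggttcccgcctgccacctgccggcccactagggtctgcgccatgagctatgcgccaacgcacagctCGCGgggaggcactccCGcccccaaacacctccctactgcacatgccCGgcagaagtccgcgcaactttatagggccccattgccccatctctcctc
Pparg (chr6:115312117-115312366, plus strand): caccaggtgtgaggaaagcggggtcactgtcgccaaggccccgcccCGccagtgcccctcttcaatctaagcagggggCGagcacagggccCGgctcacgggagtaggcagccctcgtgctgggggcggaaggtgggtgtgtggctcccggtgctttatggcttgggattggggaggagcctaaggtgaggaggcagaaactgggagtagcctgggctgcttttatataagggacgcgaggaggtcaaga
Tra2a (chr6:49214052-49214301, minus strand): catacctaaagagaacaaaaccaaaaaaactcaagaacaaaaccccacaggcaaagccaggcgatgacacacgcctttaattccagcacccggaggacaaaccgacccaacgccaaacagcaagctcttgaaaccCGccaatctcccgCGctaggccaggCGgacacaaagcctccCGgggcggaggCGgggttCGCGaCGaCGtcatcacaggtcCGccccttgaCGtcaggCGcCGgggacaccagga
Atl3 (chr19:7568678-7568927, plus strand): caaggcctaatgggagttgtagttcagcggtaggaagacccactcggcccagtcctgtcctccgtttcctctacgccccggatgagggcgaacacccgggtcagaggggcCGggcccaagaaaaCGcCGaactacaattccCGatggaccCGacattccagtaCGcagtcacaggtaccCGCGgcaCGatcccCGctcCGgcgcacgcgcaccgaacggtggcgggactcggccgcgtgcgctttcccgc
Snx18 (chr13:114408773-114409022, minus strand): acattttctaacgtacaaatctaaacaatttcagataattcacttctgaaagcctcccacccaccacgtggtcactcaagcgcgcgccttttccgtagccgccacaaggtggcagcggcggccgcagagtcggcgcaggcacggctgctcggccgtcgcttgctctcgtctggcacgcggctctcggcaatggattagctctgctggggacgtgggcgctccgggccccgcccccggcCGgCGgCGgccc

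Csf2ra encodes the alpha chain of the GM-CSF receptor. Its 4 marked CpGs were methylated at 93.2, 100 and 92.6% in knock-in and 88.6 and 84.4% in wild-type libraries, with 40 to 229 reads per library. All libraries were high. Gnas encodes the stimulatory G protein alpha subunit and lies in a locus with imprinted transcripts. Its 4 marked CpGs had levels of 30.4, 5.10 and 45.8% in knock-in and 73.8 and 14.6% in wild-type libraries, so that the groups overlapped. Pparg encodes a nuclear receptor known from fat cell differentiation, and its 3 marked CpGs had 12, 29.8 and 17.7% against 26.4 and 9.82%, again with overlap.

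Tra2a encodes a splicing regulator, and its 13 shared positions had 0 methylated reads in every library. With 205 to 2245 reads per library, a count of 0 allowed a level of up to 1.46% in the shallowest. Atl3 encodes a GTPase that shapes the endoplasmic reticulum. Its 12 shared positions were at 0.817% in knock-in replicate 2 and at 0 in the other 4 libraries. The Snx18 promoter lay in the dense tile, where its 3 shared positions had 0 methylated reads in every library, which allowed up to 2.27%. The recognition letters of MspI, CCGG, which read the same on both strands, occurred 3 times in the bases shown for Csf2ra, 2 in Gnas, 2 in Pparg, 3 in Tra2a, 4 in Atl3 and 3 in Snx18. They occurred at least once in 47.8% of the 31396 autosomal promoters of the same length.

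Shore tiles farther from dense DNA had the higher mean level. Tiles 1 tile away had mean levels of 11.3, 11.4 and 10.6% in knock-in and 10.1 and 10.5% in wild-type libraries. Tiles 2 tiles away had 51.1, 50.9 and 49.2% against 49.4 and 48.9%. The tiles 2 away were higher in 5 of 5 libraries, by a mean of 39.1 percentage points. An exact 2-sided sign-flip permutation test gave p = 0.062, the smallest it allows with 5 libraries (0.32 adjusted by Benjamini-Hochberg over the 8 planned comparisons). Each library scored the same tiles, so the test speaks of the libraries and not of the spread between tiles. Dense tiles (2.96 to 3.53% over the libraries) lay below both shore classes, and distal CpG-poor tiles (65.4 to 67.8%) above.

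**Figure D1:**
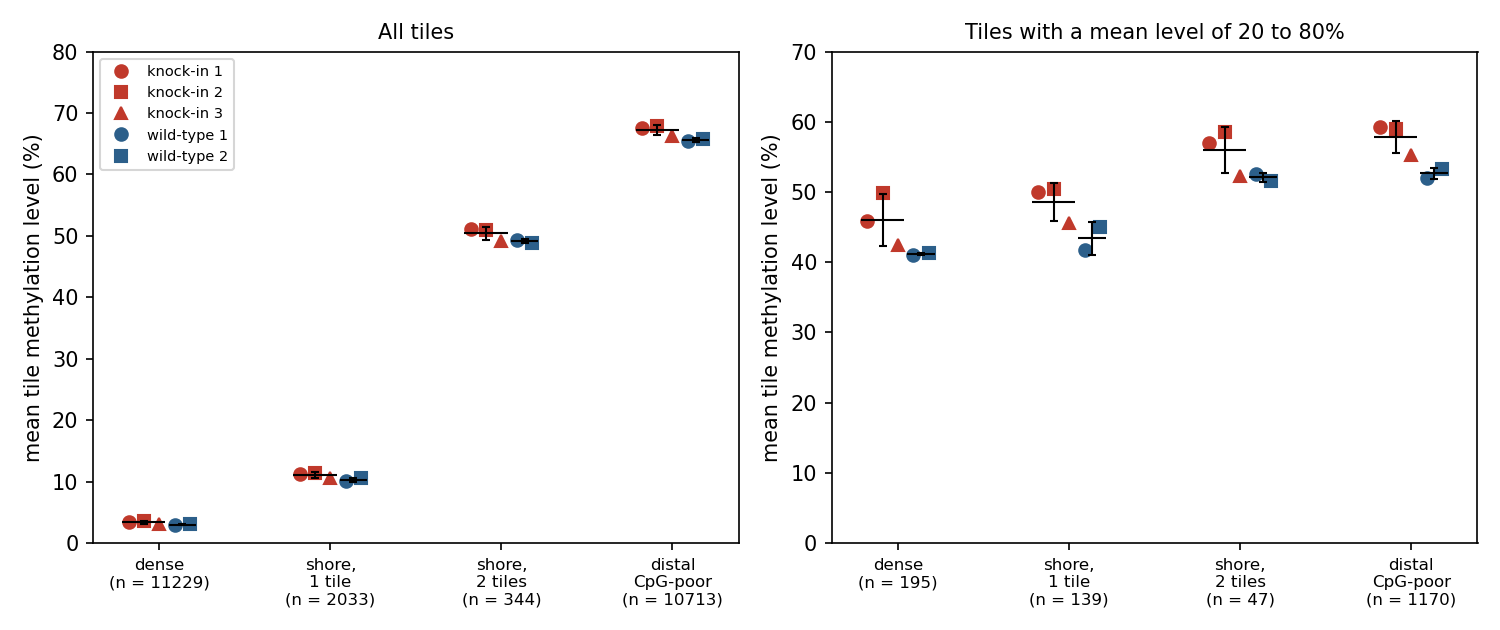
Mean methylation level (percent) of dense, shore and distal CpG-poor tiles in each library, over all tiles (left) and over tiles with a mean level of 20 to 80% (right). Symbols are libraries and bars are the group mean ± SD; shores at 1 tile lie between 10.1 and 11.4% and shores at 2 tiles between 48.9 and 51.1%.

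The mean at 2 tiles did not describe a typical tile. At 1 tile, 1562 tiles (76.8%) were under 5%, 197 were at 5 to 20%, 139 at 20 to 80% and 135 (6.64%) at 80% or more. At 2 tiles, 111 (32.3%) were under 5%, 35 at 5 to 20%, 47 at 20 to 80% and 151 (43.9%) at 80% or more. The outer shore was thus a mixture of unmethylated and methylated tiles with few between, and the inner shore was mostly unmethylated. In 457 shore tiles no methylated read was seen at the shared positions of any library.

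**Figure D2:**
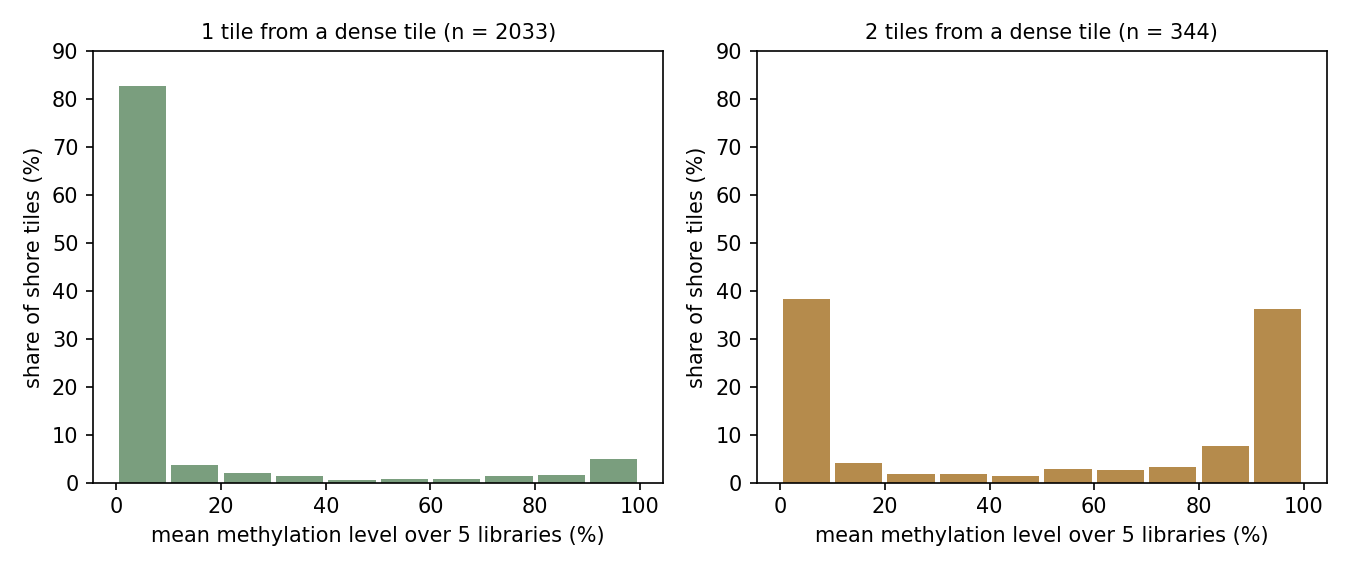
Share of shore tiles (percent) by mean methylation level over the 5 libraries, in steps of 10 points, at 1 tile (left, n = 2033) and at 2 tiles (right, n = 344) from a dense tile. The inner tiles pile up at the low end, and the outer tiles at both ends.

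The same order was seen along single flanks. On 55 flanks both the first and the second tile were measured, and the second was higher by a mean of 25.2 points, in 5 of 5 libraries. In 20 of the 55 both tiles were under 5%, in 12 the first was under 5% and the second at 80% or more, and in 3 both were at 80% or more. No flank had the reverse order, the first at 80% or more and the second under 5%. The 2 sides of a dense run (neighbouring dense tiles joined) were both measured at 1 tile in 71 runs. In 34 both sides were under 5%, and in 4 both were at 80% or more. Taken singly, 76.8% of all inner tiles were under 5%, and the share of pairs that unrelated tiles would give was not worked out. In 4 runs 1 side was under 5% and the other at 80% or more. The sides differed by under 5 points in 41 runs and by 20 points or more in 15.

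Single CpGs placed the change on a finer scale. Inside dense tiles that border a shore tile, bins of 200 bases had mean levels between 2.33 and 3.47%. The first 200 bases outside had 3.93%, the next bins 13.7, 19.3 and 31.7%, and the last bin of the first kilobase 19.3%. From 1001 bases outward the bins had 37.5, 41.5, 48.3, 49.4 and 49.5%. The profile was therefore not a steady climb, and the fall at 801 to 1000 bases was present in each of the 5 libraries (18.1 to 20.3% there against 30.0 to 32.7% in the bin before). Of the 12902 shared positions in inner shore tiles, 69.5% lay within 200 bases of the border (median 104 bases), so the inner shore level mostly described CpGs next to the dense tile. The 1743 shared positions of outer tiles lay a median of 1447 bases from it. Different flanks fill different bins, so the profile compares sets of sites and not 1 site at several distances.

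**Figure D3:**
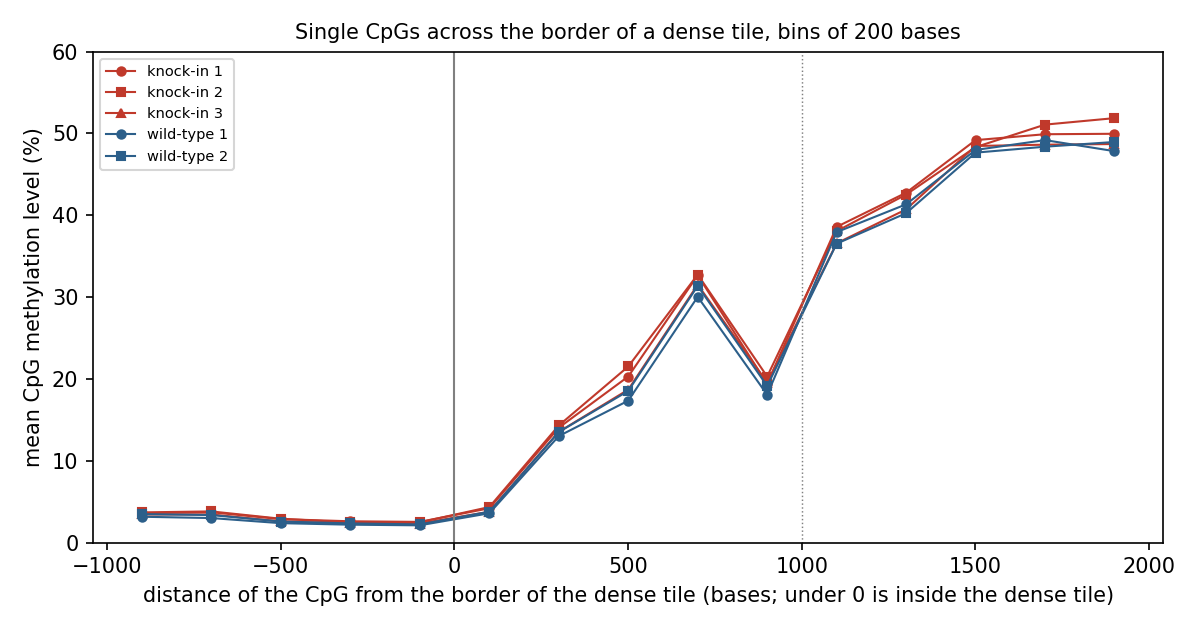
Mean methylation level (percent) of single CpGs in bins of 200 bases against the distance from the border of the dense tile, 1 line per library. The solid line is the border and the dotted line the end of the inner shore tile; levels stay between 2.11 and 3.81% inside the dense tile and reach 47.8 to 51.9% in the last bin.

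Density within shores and the state of the dense neighbour both went with the level. Inner tiles with 3 to 9 listed positions had a mean level of 22.1% (n = 288), those with 10 to 19 had 12.1% (n = 813) and those with 20 to 29 had 6.17% (n = 932). In outer tiles the levels were 68.7% (n = 103), 45.3% (n = 158) and 35.2% (n = 83). These levels fell from class to class in each of the 5 libraries, at both distances.

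Inner shores of an unmethylated dense tile (under 5%) had a mean level of 6.61% (n = 1607), and outer shores had 48.2% (n = 226). Inner shores of a methylated dense tile (80% or more) had 90.1% (n = 46), with 42 tiles at 80% or more and 0 under 5%. Outer shores of such tiles had 86.8% (n = 15), with 14 at 80% or more. No rise with distance was thus seen beside methylated dense DNA. Where dense tiles lay on both sides, the level was 8.28% in 78 inner tiles and 24.9% in 13 outer ones, against 10.9 and 50.9% with dense DNA on 1 side.

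Gene starts could be placed in 220 shore tiles, 208 inner and 12 outer. Of these, 62 had no methylated read in any library, 169 were under 1%, 200 under 5%, 12 at 5 to 20%, 5 at 20 to 80% and 3 at 80% or more. A start can be placed only where many CpGs were listed, so tiles were compared within 10 to 29 listed positions. There inner tiles with a start had a mean level of 2.42% (n = 202, 1.94 to 2.72% over the libraries) and those with no placed start had 9.77% (n = 1543, 9.06 to 10.4%). The second set can hold starts that were not placed. This class is wide, as all inner tiles had 12.1% at 10 to 19 listed positions and 6.17% at 20 to 29. Density was thus not fully matched between these sets.

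**Figure D4:**
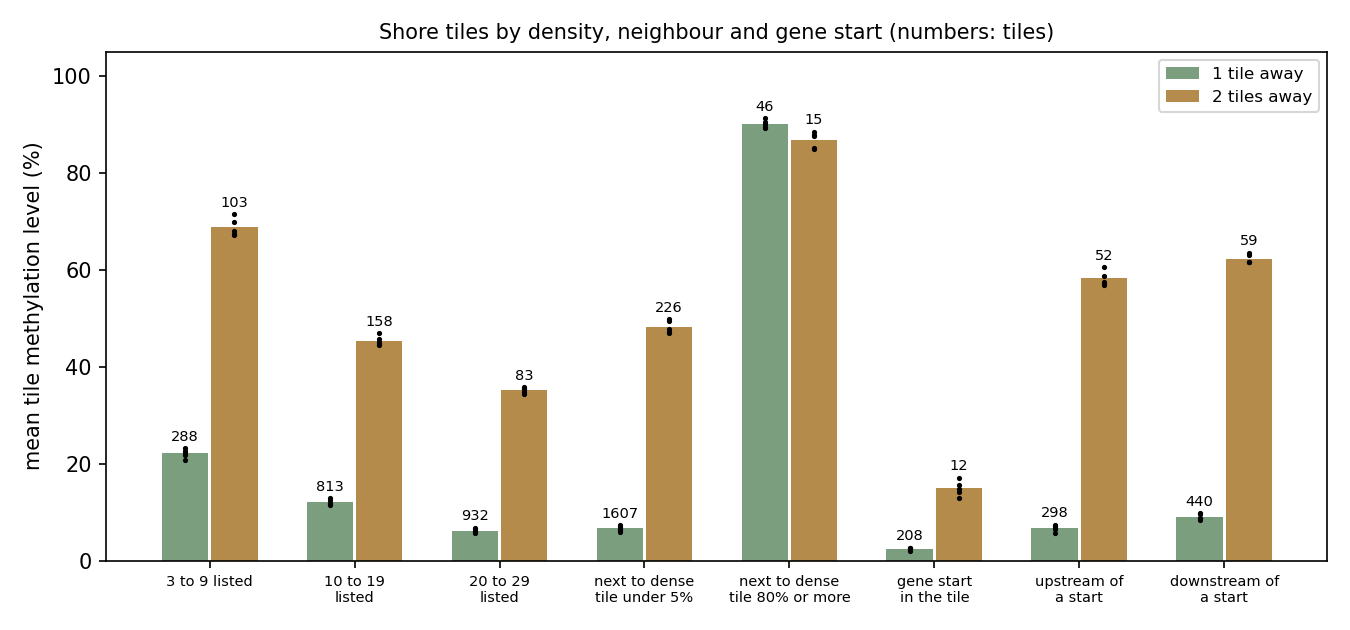
Mean methylation level (percent) of inner (green) and outer (brown) shore tiles by number of listed positions, level of the nearest measured dense tile and place relative to a gene start. Bars are means over libraries, points are the 5 libraries and the numbers are tiles; inner tiles run from 2.36% with a gene start in the tile to 90.1% beside a methylated dense tile.

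The side of the gene start also went with the level. Where a start lay in the dense run, inner shores on its upstream side had a mean level of 6.70% (n = 298) and those on the downstream side, in the gene, had 9.02% (n = 440), which was higher by 2.32 points and in 5 of 5 libraries. In outer shores the levels were 58.2% (n = 52) and 62.3% (n = 59), higher downstream by 4.05 points and again in 5 of 5. The difference was not even over densities. Inner tiles with 10 to 19 listed positions had 5.71% upstream and 11.6% downstream, and those with 20 to 29 had 3.42 and 4.67%, whereas those with 3 to 9 had 16.6 and 16.3%. Outer tiles with 10 to 19 had 43.1% upstream (n = 21) and 57.9% downstream (n = 29). Those with 3 to 9 had 76.3% (n = 24) and 79.3% (n = 20), whereas those with 20 to 29 had 41.5% (n = 7) and 40.9% (n = 10). An exact 2-sided sign-flip permutation test over the libraries gave p = 0.062 at each distance, the smallest it allows. All libraries were read on the same tiles, so this p-value does not measure the spread between tiles. The 2 sides are different tiles, and the split by density was not tested.

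The 3 methylated shore tiles with a gene start were Csf2ra (above), Sohlh2 and Gm10863. Sohlh2 encodes a transcription factor of germ cells, and its tile (chr3:54985000-54985999) had levels of 90.2, 100 and 97.5% in knock-in and 100 and 96.8% in wild-type libraries. The tile of the predicted gene Gm10863 (chr15:78996000-78996999) had a mean level of 86.4%. The Sohlh2 tile lay beside a dense tile at 96.5%, while the dense neighbours of the Gm10863 and Csf2ra tiles were at 7.17 and 2.66%.

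The 5 tiles with a start and a level of 20 to 80% belonged to Rbmxl2, Afap1l2, Gnas, Tmem59l and Pde8b. Rbmxl2 encodes an RNA-binding protein of male germ cells, and its tile (chr7:114352000-114352999) had 46.3, 66.3 and 52.2% in knock-in and 75.9 and 35.6% in wild-type libraries. Afap1l2 encodes an adaptor protein, and its tile (chr19:57083000-57083999) had 33.3, 51.4 and 48.4% against 61.3 and 33.9%. In both tiles the wild-type libraries were the highest and close to or at the lowest, so the groups overlapped. The Tmem59l tile (chr8:73011000-73011999) had 27.1, 36.5 and 13.8% against 50.0 and 29%. Pde8b encodes a phosphodiesterase that breaks down cAMP, and its tile (chr13:95993000-95993999) had 14.2, 50.0 and 23.5% against 15.3 and 29.4%. These tiles rested on 4 or 5 shared positions each, with as few as 56 reads in a library.

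Among the 12 starts at 5 to 20%, the tiles of Fbxo44, Pak6 and Alkbh4 had no overlap between the groups, with knock-in higher by 10 points or more in the means. Of all tested tiles, 2.37% were separated in this way. The share among all tiles at 5 to 20% was not counted, so these few tiles are given as examples only. Fbxo44 encodes a subunit of a ubiquitin ligase, and its tile (chr4:147533000-147533999) had 25.5, 17.3 and 29.5% against 7.58 and 6.04%, over 3 shared positions. Pak6 encodes a protein kinase, and its tile (chr2:118502000-118502999) had 9.68, 31.4 and 13.7% against 0 and 5.60%, also over 3 positions. Alkbh4 encodes a demethylase of the AlkB family, and its tile (chr5:136612000-136612999) had 12.9, 20.8 and 0.528% against 0 and 0, with 44 reads in wild-type replicate 1. A count of 0 in that library allowed up to 6.82% in the Alkbh4 tile and, with 45 reads, up to 6.67% in the Pak6 tile. At Alkbh4 this limit lies above knock-in replicate 3, so depth does not exclude an overlap there. Without knock-in replicate 2 the difference fell from 15.5 to 8.89 points in the Pak6 tile and from 11.4 to 6.71 points in the Alkbh4 tile. Fgd5, which marks blood stem cells, had 20 shared positions in its tile (chr6:91928000-91928999). Their level was 4.76, 9.13 and 3.94% in knock-in and 7.69 and 3.39% in wild-type libraries, so the groups overlapped. At the start of Gata3, a transcription factor of T cells, the outer shore tile (chr2:9800000-9800999) had 0 methylated reads at 14 shared positions in all libraries, which allowed up to 1.55% at the lowest depth, although the nearest dense tile was at 11.8%.

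Methylated inner tiles beside an unmethylated dense tile were rare. Of the 1607 inner tiles whose nearest dense tile was under 5%, 49 (3.05%) had a level of 80% or more. The nearest CpG at 80% or more and the nearest CpG under 20% on the dense side lay 298 to 1646 bases apart (median 1005), and none lay within 200 bases. These distances depend on which CpGs were read. A border inside a tile can give an intermediate level, and such tiles were not counted here. How sharp the borders were was thus not measured. Where a start was placed, 15 of these tiles lay downstream of it, 6 upstream and 8 beside starts on both strands. The classes differ in size, with 440 inner tiles downstream and 298 upstream. Whatever the level of the dense tile, 80% or more was reached by 4.77% of inner tiles downstream and 2.68% upstream. The share beside starts on both strands was 6.06%. These shares were not tested.

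The 4 such tiles with the most shared positions lay beside the starts of Celsr2, Bcl2l1, Rbm15b and Mocs3. Celsr2 encodes a cadherin of planar cell polarity. Its tile (chr3:108217000-108217999) had 97.5, 97.6 and 95.8% in knock-in and 100 and 95.9% in wild-type libraries, beside a dense tile at 0.322%. The tile edge lay 498 bases from the start at 108218497, and the 12 shared positions lay farther away, at 108217343 to 108217417. Bcl2l1 encodes an inhibitor of apoptosis, and its tile (chr2:152655000-152655999) had 100, 96.2 and 94.8% against 91.9 and 96.0%, beside a dense tile at 0. The edge of that tile lay 454 bases downstream of the start at 152656453, and its 8 shared positions lay farther away, at 152655422 to 152655539. Rbm15b encodes an RNA-binding protein, and its tile (chr9:106787000-106787999) had 89.1, 89.6 and 97.9% against 98.2 and 93.7%. In these 3 the groups overlapped. Mocs3 acts in the synthesis of the molybdenum cofactor, and its tile (chr2:168057000-168057999) had 91.0, 100 and 84.7% against 83.7 and 76.3%. There the nearest libraries of the groups were 1.01 points apart.

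The opposite case was the 111 outer tiles that stayed under 5%. The 4 with the most shared positions lay on chromosome 3 (chr3:13471000-13471999, no gene start placed within 5000 bases), beside Scaf1 (chr7:52273000-52273999), near Dda1 (chr8:73989000-73989999) and near Dmrta2 (chr4:109652000-109652999). Scaf1 encodes a splicing-related protein, Dda1 a part of a ubiquitin ligase complex and Dmrta2 a developmental transcription factor. Over 15 to 17 shared positions, the chromosome 3 tile had 2.14, 2.64 and 0.612% in knock-in and 1.40 and 0.672% in wild-type libraries. The Scaf1 tile had 0, 0.407 and 0.128% against 3.30 and 0.168%, with only wild-type replicate 1 above 1%. The Dda1 tile had 0.922, 5.79 and 4.90% against 1.52 and 1.27%, and the Dmrta2 tile had 1.90, 1.35 and 1.78% against 2.02 and 2.73%. All 4 dense neighbours were under 2%.

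Between genotypes, the mean level of inner shores was 11.1% ± 0.430 (SD, n = 3) in the knock-in and 10.3% ± 0.307 (SD, n = 2) in the wild-type libraries. The groups did not overlap, and the difference of 0.787 points had p = 0.2 by an exact 2-sided permutation test over the 10 ways to divide the libraries, whose smallest p is 0.1 (adjusted p = 0.32 over 8 comparisons). By the median over tiles the difference was 0.129 points. In outer shores the means were 50.4% ± 1.00 (SD, n = 3) and 49.1% ± 0.354 (SD, n = 2). Knock-in replicate 3 lay below wild-type replicate 1, and the difference of 1.27 points had an exact permutation p = 0.3 (adjusted 0.343). It was 0.385 points when tiles were weighted by reads and 5.37 points by the median.

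Within the 2 libraries with a high chromosome X level, the knock-in library was higher by 1.31 points at 1 tile and 1.52 points at 2 tiles. Within the 3 libraries with a low level, the differences were 0.417 and 1.27 points. Each of these kinds holds a single wild-type library, and no test was made within them.

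The genotype difference in shores was not shown to differ from that elsewhere. The difference at 2 tiles minus that at 1 tile was 0.484 points (exact permutation p = 0.4, adjusted 0.40). Leaving out knock-in replicate 1 gave 0.248 points, and leaving out replicate 3 of that group gave 0.815. Leaving out wild-type replicate 1 gave 0.951 points, and the other wild-type library 0.016. By the median over tiles it was 5.24 points, and it turned to -0.219 points when tiles were weighted by reads. Against dense tiles, the difference of shore tiles was larger by 0.50 points (exact permutation p = 0.2, adjusted 0.32), and by 0.0785 points by the median over tiles. Against distal CpG-poor tiles it was smaller, by -0.734 points (exact permutation p = 0.2, adjusted 0.32), with -1.82 points by the median and -2.32 when weighted by reads. Inner tiles with dense DNA on both sides had 8.28% in knock-in and 8.29% in wild-type libraries.

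The genotypes were farthest apart, in points, in shore tiles of intermediate level. In the 139 inner tiles at 20 to 80%, the libraries had 50.0, 50.4 and 45.5% against 41.7 and 45.1%, a difference of 5.22 points (exact permutation p = 0.2, adjusted 0.32). It was 7.03 points without knock-in replicate 3 and 2.52 points when weighted by reads. In the 47 outer tiles, the levels were 56.9, 58.6 and 52.3% against 52.5 and 51.6%, a difference of 3.87 points (exact permutation p = 0.3, adjusted 0.343). It was 1.94 points without knock-in replicate 2 and 6.17 points without knock-in replicate 3. Tiles of this class elsewhere had differences of similar size, 4.88 points in dense and 5.16 points in distal tiles.

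Single libraries also spread widely in these tiles. The range over the 5 libraries had a median of 29.4 points in the inner and 27.5 points in the outer tiles of 20 to 80%, and it passed 20 points in 112 of 139 and 37 of 47. Among these 186 tiles, knock-in replicate 2 was the highest library in 66 and the lowest in 46, and wild-type replicate 1 was the highest in 38 and the lowest in 61. The most deeply read library, knock-in replicate 3, was the highest in 14 and the lowest in 30. The 2 shallowest libraries were thus the most often at an extreme.

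The 4 tiles of 40 to 60% with the most shared positions lay near Rex1bd, near Dll4, on chromosome 3 (chr3:107134000-107134999) and near Htr6. Dll4 encodes a ligand of Notch receptors. Its inner tile (chr2:119149000-119149999, edge 1521 bases from the start, 9 shared positions) had 37.8, 69.8 and 62.3% in knock-in and 17.3 and 40.5% in wild-type libraries. Knock-in replicate 1 lay below wild-type replicate 2, so the groups overlapped despite a difference of 27.7 points, which was 16.1 without wild-type replicate 1. The 9 positions span 67 bases and share reads, and 8 of them were higher in the knock-in mean. Htr6 encodes a serotonin receptor, and its outer tile (chr4:138629000-138629999) had 39.8, 36.3 and 55.7% against 52.2 and 57.0%, with overlap and a difference of -10.7 points. That difference was -6.90 with knock-in replicate 2 left out and -16.6 when replicate 3 was dropped instead. The Rex1bd tile (chr8:73029000-73029999) had 56.5, 64.9 and 54.7% against 42.0 and 58%.

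A shore tile was counted as separated when all knock-in libraries lay on the same side of both wild-type libraries and the group means were 10 or more points apart. Knock-in was higher in 46 shore tiles (1.94%), against 2.37% of all tested tiles. Knock-in was lower in 11 (0.463%), against 0.621%. With no limit on size, 133 shore tiles (5.60%) had all knock-in libraries above and 74 (3.11%) all below, against 8.98% and 3.61% of all tiles. The shares in shores were below the background. With 1 library left out, the counts of 46 and 11 ran from 43 to 133 and from 16 to 71, both highest without wild-type replicate 2. The shares of all tested tiles with 1 library left out were not counted. The 457 shore tiles at 0 in every library could not separate. Within 20 to 80%, 28 of 186 shore tiles (15.1%) were separated with knock-in higher and 3 (1.61%) lower, against 14.1% and 3.22% of all tiles of that class.

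No shore tile was called by edgeR's quasi-likelihood test after Benjamini-Hochberg adjustment over all 24319 tiles (0.0% of all tiles in either direction). At an unadjusted p under 0.05 there were 16 shore tiles with knock-in higher and 20 lower, or 0.673% and 0.841%, against 0.843% and 0.748% of all tiles. These are fewer tiles than a threshold of 0.05 would give if no tile differed. The edgeR test was thus cautious here, and 0 calls do not show that no tile differs. By limma no shore tile was called either. At an unadjusted p under 0.05 on arcsine square root values, 38 of the 2377 shore tiles were higher and 27 lower, against 646 and 296 of all 24319 tiles. The counts were 36 and 36, against 511 and 381, when each library was first centred. For log2 ratios they were 33 and 33, against 620 and 343. With a term for the kind of library by chromosome X level, edgeR called 0 shore tiles. At the unadjusted level 17 shore tiles were then higher and 7 lower, against 214 and 125 of all tiles.

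**Figure D5:**
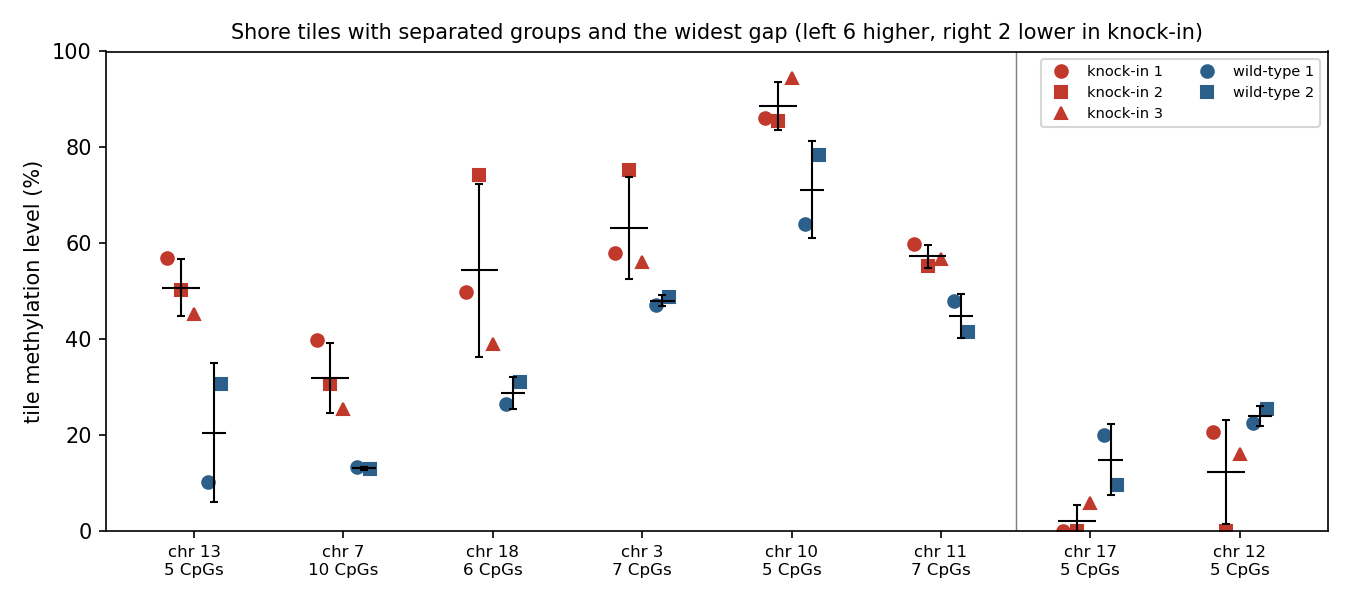
Methylation level (percent) in each library at the 6 separated shore tiles with knock-in higher and the widest gap between the groups, and at the 2 with knock-in lower, all with 5 or more shared positions. Symbols are libraries and bars are the group mean ± SD; the gap is widest in the chromosome 13 tile, between 45.1 and 30.7%.

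All tested tiles leaned towards higher knock-in levels, with 2.37% separated upward and 0.621% downward. Their shares at 5 or more shared positions were not counted. Of the 1368 shore tiles with 5 or more shared positions, 16 were separated upward and 2 downward. They were ranked by the gap between the nearest libraries of both groups, and each had an adjusted edgeR p of 1. The widest gap was in an inner tile at Snx18, which encodes a sorting nexin of membrane trafficking. The tile (chr13:114407000-114407999) begins 773 bases downstream of the start and had 56.9, 50.2 and 45.1% in the knock-in against 10.1 and 30.7% in the wild-type libraries, while the dense tile beside it was at 0.187%. The difference was 30.3 points, and 20.1 without wild-type replicate 1, which had 79 reads there. The levels came from 4 CpGs between 114407577 and 114407608 on 1 strand, and the CpG nearest the dense tile, at 114407995, was at 0 to 4.50%.

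The next tile (chr7:28113000-28113999, 10 shared positions) had its edge 830 bases upstream of the start of the predicted gene Gm30543. It had 39.7, 30.7 and 25.3% against 13.2 and 12.8%, and 8 of its 10 positions were higher in the knock-in mean. The difference of 18.9 points was 12.3 when reads were thinned to 10 per CpG. The chromosome 18 tile (chr18:46359000-46359999) had 49.7, 74.3 and 38.9% against 26.3 and 31.0%, and its difference of 25.6 points was 15.6 without knock-in replicate 2. The chromosome 3 tile at 107134000, also named above, had 57.9, 75.3 and 56.0% against 47.2 and 48.8%, and its 15.1 points became 8.96 without knock-in replicate 2. No gene start was placed within 5000 bases of these last 2 tiles.

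The other 2 higher tiles differed in their surroundings. The inner tile on chromosome 10 (chr10:79197000-79197999) lay beside a methylated dense tile (88.1%) and had 86.0, 85.6 and 94.5% against 64.0 and 78.4%. Its difference of 17.5 points was 10.3 without wild-type replicate 1. The outer tile on chromosome 11 (chr11:69211000-69211999) lay near a dense tile at 0 and had 59.9, 55.2 and 56.6% against 48.0 and 41.5%. Its difference of 12.5 points was 7.78 at positions with 20 or more reads in every library.

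Both lower tiles were of low level. The tile on chromosome 17 (chr17:26975000-26975999) had 0, 0 and 5.75% against 20.0 and 9.55%, and a count of 0 allowed up to 1.69 and 4.00% in the first 2 libraries. The difference of -12.9 points was -7.64 without wild-type replicate 1. The tile on chromosome 12 (chr12:85910000-85910999) had 20.7, 0 and 16.0% against 22.4 and 25.4%. Its difference of -11.7 points was -5.57 without knock-in replicate 2, the only library at 0.

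By the smallest edgeR p, the leading shore tiles were all of low level. With knock-in higher they were an inner tile on chromosome 11 (chr11:5345000-5345999; 4.72, 4.81 and 1.43% against 0 and 0) and one on chromosome 7 (chr7:77515000-77515999; 7.06, 24.7 and 6.42% against 0 and 0). In the chromosome 11 tile a count of 0 allowed up to 1.76% in wild-type replicate 1, with 170 reads. This limit lies above knock-in replicate 3, so depth does not exclude an overlap there. Only 4 of the 11 shared positions of that tile were higher in the knock-in mean. In the chromosome 7 tile the wild-type libraries had 89 and 60 reads, so that a count of 0 allowed up to 3.37 and 5.00%. With knock-in lower they were chr14:67530000-67530999 (0, 0 and 0.318% against 15.6 and 7.50%) and chr5:124778000-124778999, which holds the start of 2810006K23Rik (0 in 4 libraries and 15.8% in wild-type replicate 1). The last difference rested on that library alone and was 0 without it. The unadjusted p-values of these tiles ran from 0.00564 to 0.0132, and all adjusted values were 1.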

How the data were processed

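DNA methylation in 5 libraries was read from 1 deposited table per library. Per the submitters' processing notes, CASAVA 1.7, Bismark and mm9 were used. Per the file headers, the deposited tables hold a read count (coverage) per CpG position and strand and the percent of C and of T. Every listed position had at least 10 reads. Duplicate removal and conversion correction are not given in the sources used here. Methylated and unmethylated reads were coverage times these percentages, which gave whole numbers at 100% of positions, within the rounding of the percentages.

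Tables were joined by position and strand over 19 autosomes. A tile level was the percent methylated of the reads pooled over shared positions, and class means weighted tiles equally. The levels of the promoters shown were instead means over their shared positions, each position weighted equally. Tiles were tested with edgeR 4.0.16 (quasi-likelihood, a term per library) over 24319 tiles, and with limma 3.58.1 as an alternative, in R 4.3.3, both tested on simulated data. Other steps used Python 3.11.15, numpy 2.4.6, pandas 2.3.3 and scipy 1.17.1. Alternatives changed the shared-position and coverage minima, the density limit, tile offset, depth, weighting and single libraries.

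Members, lists and tests were chosen with earlier results of these data known. Named tiles were those with the widest gap among separated tiles of 5 or more shared positions (up to 6 each way), with the most shared positions in 3 classes (up to 4 each), and with the smallest edgeR p (2 each way). A rule for dense runs with 4 measured shore tiles found 0. Gene starts, which the rule had left to an annotation of the mm9 build, were placed from the files instead, a choice made after the data were seen. Of 31396 RefSeq promoter sequences of GRCm38.p6 (250 bases before to 50 after the start), 15382 had 8 or more CGs. A promoter was placed where 8 or more listed CpGs, and all in the window, fell on its CGs at 1 place only. This placed 8963 promoters of 7951 genes. On the wrong chromosome (the next autosome) 76 could be placed. In all, 99.9% stood in reference order with both neighbours. Genes and promoters beyond the rule were picked after their values were seen.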

Additional observations from a re-analysis of the deposited data

How the results depend on the processing

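No paired analysis was possible because the labels give no replicate numbers that could pair libraries between the groups. Every alternative kept the direction of the 1-tile and 2-tile genotype differences, of both differences at 20 to 80% and of the differences from dense and distal tiles, and none moved them across the threshold, which the exact permutation test cannot reach with 5 libraries. The 2-tile minus 1-tile genotype difference turned to -0.219 points when tiles were weighted by reads, was 5.24 points by the median and ran from 0.016 to 0.951 with 1 library left out; the cause was not tested. The distance difference itself ran from 33.7 to 59.2 points. Every edgeR fit run on an alternative, each left-out library included, called 0 shore tiles, as did the 3 limma fits. The counts of separated tiles moved too. With 5 or more shared positions they were 16 higher and 2 lower of 1368 shore tiles. With 20 or more reads per position they were 10 and 1 of 723 shore tiles. Leaving out 1 library gave 43 to 133 higher and 16 to 71 lower. The counts were 133 and 71 when wild-type replicate 2 was dropped, and 79 and 25 for wild-type replicate 1. They were 94 and 31 on dropping knock-in replicate 3, and 73 and 32 for knock-in replicate 1. Fewer libraries make separation easier by construction. The shares of all tested tiles were not counted under these settings, so the moved counts are not results about shores. Depth limits tiles at 0, where a median of 100 reads in the shallowest library left small levels undetectable.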

Other observations

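Chromosome X was left out of the comparisons, and its shore tiles followed the 2 libraries that stood apart there. The 41 inner shore tiles of chromosome X had mean levels of 10.4, 34.9 and 10.7% in knock-in replicates 1, 2 and 3 and of 32.6 and 11.4% in wild-type replicates 1 and 2. The 6 outer tiles had 20.5, 41.0 and 16.7% and 45.0 and 15.7%. In knock-in replicate 2 and wild-type replicate 1, the inner tiles stood above the dense tiles of the same chromosome (24.1% in each), and the outer tiles above the inner. The other 3 libraries had the same order at lower levels, with 2.94, 3.82 and 3.65% in the 159 dense tiles.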
